A study of Rattus norvegicus with 4 samples.

Results

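The enzymes that make and balance the deoxynucleotides used for DNA synthesis were examined in the ventral prostate of rats given PhIP. The list named 7 genes: Rrm1, Rrm2 and Rrm2b for ribonucleotide reductase, Dut and Tyms for the route to thymidylate, and Tk1 and Dck for salvage. Members were all probe sets that the platform annotation gives to exactly 1 symbol, that symbol being on the list. This took 10 of 31042 probe sets, covering 5 of the 7 genes: 1 each for Rrm1 and Tyms, 2 for Dut and 3 each for Tk1 and Dck. No probe set carried the symbol Rrm2b, so that gene is not analysed here. For Rrm2, 2 probe sets carried its symbol together with that of Rrm2l1, a related gene, so their signal cannot be assigned to either gene. They are described beside the members and counted in none of their totals.

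The arrays held RNA of the ventral lobe of the prostate of male F344 rats, an inbred laboratory strain, aged 6 weeks. PhIP is a heterocyclic amine of cooked meat whose activated form binds DNA and which causes prostate tumours in rats. Treated rats received 300 mg/kg and were killed 2 days later, and controls went without PhIP. The sources used here name neither the route nor the vehicle. RNA of 2 of the 4 rats of a group was mixed on each array, which gave control 1, control 2, PhIP 1 and PhIP 2. Each value below is a MAS5 signal, the brightness of a probe set in arbitrary units, scaled by the authors to a common mean per array. It orders samples within a probe set and not genes against each other.

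Ribonucleotide reductase converts ribonucleotides to deoxyribonucleotides and is built of a large subunit, encoded by Rrm1, and a small subunit. The small subunit of dividing cells is encoded by Rrm2, whose protein is made in S phase and destroyed at mitosis, while Rrm2b encodes a small subunit that p53 induces and that serves cells outside S phase. Dut hydrolyses dUTP, which keeps uracil out of DNA and yields the substrate of thymidylate synthase, the product of Tyms. Thymidine kinase 1, encoded by Tk1, and deoxycytidine kinase, encoded by Dck, recover deoxynucleosides, Tk1 mostly in cells that replicate their DNA and Dck in a wider range of cells. Several of these genes are known targets of E2F factors, which switch on S-phase genes.

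Promoter windows of members that hold an E2F or CHR word are shown, as these words lie at different places in them. Cell cycle genes are known to be controlled through such elements. Each window runs from 250 bases before to 50 bases after an annotated start (RefSeq, build GRCr8). Of the 7 genes, 5 had a window, Dut with 2 starts, which made 6 windows. The windows of Tk1 and of the first start of Dut held neither an E2F nor a CHR word and are not printed. Capitals mark the E2F words TTTCCCGC, TTTCGCGC, TTTGCCGC, TTTGGCGC and GGCGGGAA (the first and last can overlap) and the CHR words TTTGAA and TTCGAA, searched on both strands.
Rrm1, chr1:166235654-166235953, plus strand: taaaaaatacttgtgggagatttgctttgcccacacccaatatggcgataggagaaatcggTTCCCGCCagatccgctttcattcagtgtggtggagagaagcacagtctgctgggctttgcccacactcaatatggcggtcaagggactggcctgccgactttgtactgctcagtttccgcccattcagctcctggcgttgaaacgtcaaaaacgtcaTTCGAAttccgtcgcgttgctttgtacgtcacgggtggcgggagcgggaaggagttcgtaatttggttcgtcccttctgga
Tyms, chr9:120776034-120776333, minus strand: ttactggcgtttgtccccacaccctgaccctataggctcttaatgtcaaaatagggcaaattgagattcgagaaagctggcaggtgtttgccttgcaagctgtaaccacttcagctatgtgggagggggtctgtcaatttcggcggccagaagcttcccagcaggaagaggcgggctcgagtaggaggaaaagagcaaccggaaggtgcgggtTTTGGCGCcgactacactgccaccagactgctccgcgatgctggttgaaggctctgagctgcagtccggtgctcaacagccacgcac
Dut, second start, chr3:132952649-132952948, plus strand: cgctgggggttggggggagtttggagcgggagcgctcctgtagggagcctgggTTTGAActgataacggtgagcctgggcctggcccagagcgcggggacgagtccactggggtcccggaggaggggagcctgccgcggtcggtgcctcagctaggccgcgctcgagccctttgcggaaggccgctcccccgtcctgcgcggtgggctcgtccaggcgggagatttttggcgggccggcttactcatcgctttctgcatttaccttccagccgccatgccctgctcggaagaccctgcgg
Dck, chr14:19610277-19610576, minus strand: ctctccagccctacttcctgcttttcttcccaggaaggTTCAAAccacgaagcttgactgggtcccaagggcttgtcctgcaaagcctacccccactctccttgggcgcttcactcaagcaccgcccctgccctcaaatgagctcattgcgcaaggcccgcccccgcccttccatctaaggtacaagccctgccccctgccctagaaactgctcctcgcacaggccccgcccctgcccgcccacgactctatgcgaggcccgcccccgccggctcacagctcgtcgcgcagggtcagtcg

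An E2F word was present in 2 of the 6 member windows, against 3.57% of all 33469 windows of that length. In the Rrm1 window GGCGGGAA lay on the opposite strand and began 189 bases before the start, and in the Tyms window TTTGGCGC began 37 bases before it. CHR words occurred in the windows of Rrm1, Dck and the second start of Dut, against 19.7% of all windows. The Rrm1 word, TTCGAA, began 31 bases before the start. The GC box GGGCGG, searched on both strands and present in 33.1% of all windows, occurred 6 times in the Dck window and 1 time each in those of Rrm1, Tk1 and the first start of Dut. A full p53 site occurred in none of the 6, against 0.0598% of all windows. These matches describe letters in the windows, and binding was not measured.

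The arrays differed in ways that bear on every value. The control arrays had median signals of 25.5 and 27.4, the PhIP arrays 23.2 and 23.1. Control 2 stood apart, with a ratio of 5.71 between 3′ and 5′ signal for actin, a measure of RNA integrity, against 3.49 to 4.18 on the others, and a correlation with control 1 (r = 0.972 across 18625 probe sets, which are not independent) below that of control 1 with PhIP 1 (0.980). Of all probe sets, 18625 were bright enough to be tested (mean log2 value above the 40th percentile), and 5 of them passed an adjusted p of 0.05 (0.0268%; limma, Benjamini-Hochberg over all tested), 4 higher and 1 lower in PhIP. Sbp, a secretory gene of the labelled ventral lobe, was bright, between 6436 and 8219, and so was Pbsn, a secretory gene of the prostate epithelium, between 4273.0 and 4898. The PhIP arrays correlated at 0.987 with each other, but Alb, the albumin gene, was far higher on PhIP 2. It read 125.3 and 121.5 in control, 150.4 on PhIP 1 and 734.7 on PhIP 2. Alb was named after its value was seen, and the cause was not tested.

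Rrm1, the large subunit of ribonucleotide reductase, was higher on both PhIP arrays, with nearly 2 times the signal of control. The control arrays read 97.6 and 87.1, the PhIP arrays 159.6 and 191.6. The groups did not overlap, and PhIP 2 was the highest array. The group means were 92.4 ± 7.42 and 175.6 ± 22.6 (SD, n = 2), a ratio of 1.90. On the log2(signal + 10) scale used for every test, the change was 0.86 ± 0.16 (SE, 95% interval 0.49 to 1.22; limma adjusted p = 0.0977), which did not pass 0.05. Without control 2 it was 0.78 (adjusted p = 0.0185) and without control 1 it was 0.93 (adjusted p = 0.00263), but the adjusted p was 0.518 without PhIP 1 and 0.733 without PhIP 2. A fit without 1 control takes its spread from the PhIP pair and assumes that the lone control varies alike. Such fits called 12.7% of all probe sets tested (without control 1) and 2.51% (without control 2).

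The probe sets shared by Rrm2 and Rrm2l1 showed larger differences than Rrm1. The brighter one, 1389408_at, read 840.0 and 609.6 on the control arrays, with PhIP at 1610.0 and 1915. Its log2 change was 1.28 ± 0.15 (95% interval 0.92 to 1.64; limma adjusted p = 0.0517), the 23rd highest of all 18625 tested. The dimmer one, 1393848_at, read 71.4 and 27.8 on the control arrays, with PhIP at 161.6 and 191.6, and the groups overlapped in neither probe set. Its log2 change was 1.75 ± 0.32 (95% interval 0.99 to 2.50; adjusted p = 0.0999), the fourth highest of all. Its control arrays lay far apart. Without control 2 its change was 1.19, and that of the brighter probe set 1.06. Measured within each array against Rrm1, 1389408_at was higher by 0.43 log2 units on both PhIP arrays than in the mean of the control arrays, which themselves lay at 0.15 and −0.15. The two-sided exact permutation p was 0.333, the smallest that 2 arrays against 2 can give.

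**Figure D1:**
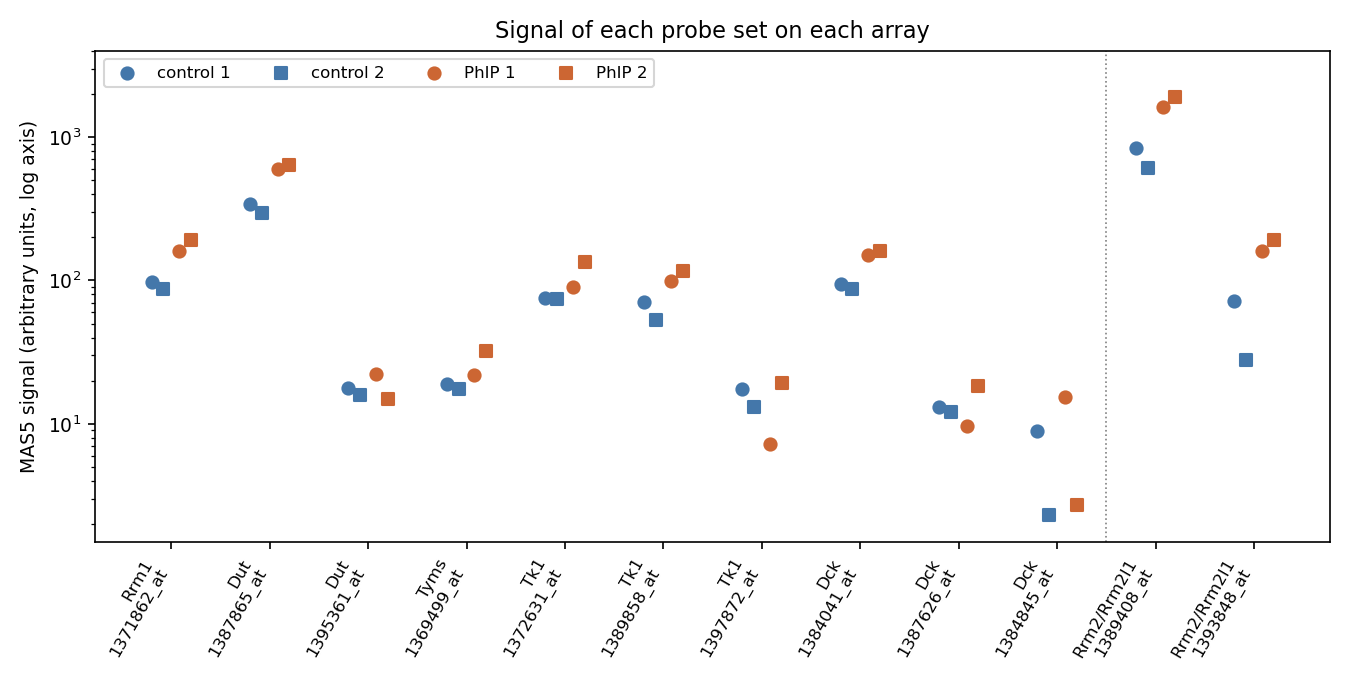
MAS5 signal (log axis) of the 10 member probe sets and, right of the dotted line, of the 2 probe sets shared by Rrm2 and Rrm2l1; each point is 1 array of 2 pooled rats. Both PhIP arrays lie above both control arrays for 6 members and both shared probe sets, and the groups overlap in the 4 remaining dim probe sets of Dut, Tk1 and Dck.

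Dut, the dUTP hydrolase, had the largest log2 change among the members. Probe set 1387865_at read 341.2 and 294.2 in the control pools, against 594.3 and 639.2 after PhIP. The PhIP arrays were close to each other and far above both controls. The means were 317.7 ± 33.2 and 617 ± 31.7 (SD, n = 2), a ratio of 1.94, and the log2 change was 0.94 ± 0.12 (SE, 95% interval 0.67 to 1.21; limma adjusted p = 0.0517). This placed it 16th by p among the tested probe sets. With 1 array left out the log2 change lay between 0.83 and 1.04. This probe set passed 0.05 with the replicate number as a block (limma adjusted p = 0.0406), though no label pairs the arrays by that number. It did not pass with quantile normalization (0.063), median centring (0.062), cyclic loess (0.063) or eBayes without trend (0.270). The other Dut probe set, 1395361_at, was dim, at 17.9 and 16.0 in the control pools, against 22.3 and 14.8 after PhIP. Those groups overlapped and its interval ran from −0.53 to 0.67.

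Tyms, thymidylate synthase, was near the lower end of the tested range. It read 19.1 and 17.6 in the control pools, against 22.0 and 32.0 after PhIP. Both PhIP arrays were above both controls, but PhIP 1 by little and PhIP 2 by more. The log2 change was 0.37 ± 0.24 (SE, 95% interval −0.20 to 0.94; limma adjusted p = 0.552), and it was 0.18 without PhIP 2. The interval holds both no change and one as large as that of Dut.

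Of the salvage kinases, Tk1 had its PhIP arrays apart from each other. Probe set 1372631_at read 75.2 and 73.9 in the control pools, against 90.6 and 133.7 after PhIP, a log2 change of 0.51 ± 0.20 (limma adjusted p = 0.348). The change was 0.25 without PhIP 2 and 0.77 without PhIP 1. A second probe set of similar brightness, 1389858_at, read 70.6 and 53.2 in the control pools, against 98.9 and 116.7 after PhIP, with a log2 change of 0.72 ± 0.19 (adjusted p = 0.190). Its change lay between 0.54 and 0.89 with 1 array left out. Both probe sets showed no overlap between groups and were highest on PhIP 2. The last one, 1397872_at, was too dim to be tested (control 17.5 and 13.1, PhIP 7.2 and 19.4), and its groups overlapped.

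Dck, deoxycytidine kinase, had close values within both groups. Probe set 1384041_at read 94.1 and 87.2 in the control pools, against 150.4 and 161.5 after PhIP. The means were 90.7 ± 4.88 and 156 ± 7.85 (SD, n = 2), a ratio of 1.72 with no overlap. The log2 change was 0.72 ± 0.14 (SE, 95% interval 0.39 to 1.05, limma adjusted p = 0.115). It lay between 0.67 and 0.77 with 1 array left out. The probe sets 1387626_at (control 13.2 and 12.1, PhIP 9.6 and 18.5) and 1384845_at (control 8.9 and 2.3, PhIP 15.5 and 2.7) were too dim to be tested, and their groups overlapped.

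**Figure D2:**
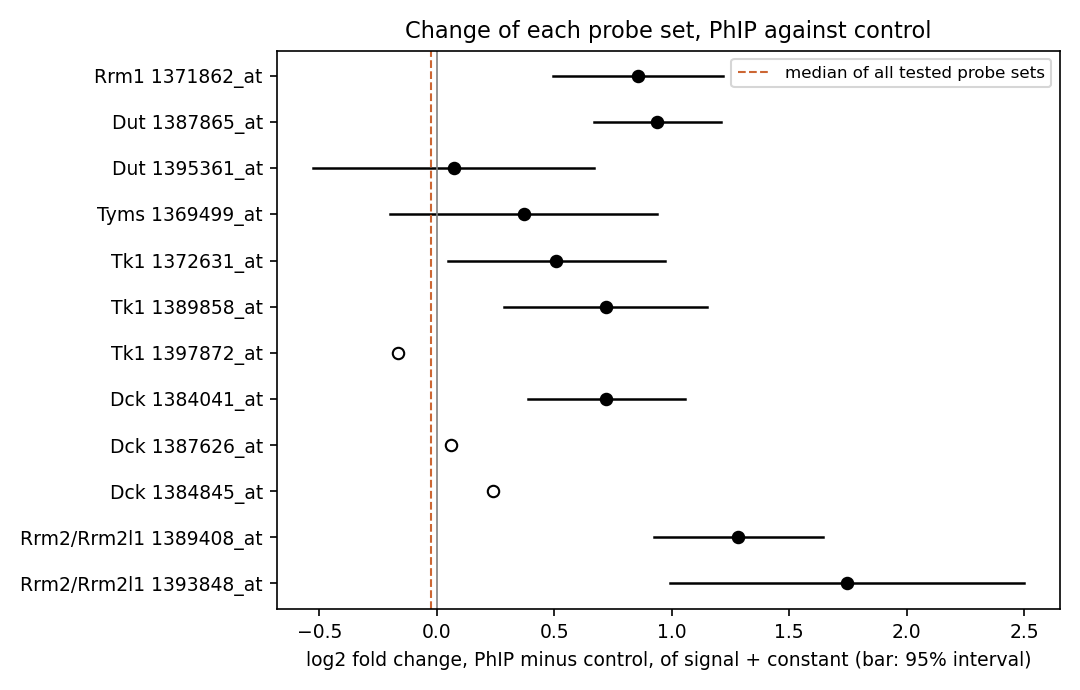
Log2 fold change (PhIP minus control, of signal + 10) of each member probe set and of those shared by Rrm2 and Rrm2l1, with the 95% interval of the limma fit; open circles were too dim to be tested. Intervals of Rrm1, Tk1, Dck, the bright Dut probe set and both shared probe sets lie above 0, and the dashed line marks the median of all tested probe sets at −0.03.

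Of the 10 member probe sets, 7 were tested and 0 passed an adjusted p of 0.05 in limma, a threshold that 0.0215% of all tested probe sets passed on the higher side. With 1 array left out the number was 4 of 7 without control 1, where 7.31% of all tested probe sets passed as higher, 3 of 8 without control 2, where 1.28% did, and 0 without either PhIP array, where no probe set passed. At an unadjusted p under 0.05, 5 of the 7 were higher in PhIP and 0 lower, against a background of 5.36% higher and 7.61% lower among all tested probe sets. Without PhIP 2 the number higher was 3. Of the 7, 6 had both PhIP arrays above both control arrays, against 19.8% of all tested probe sets, and 0 had both below. At an adjusted p of 0.10, Rrm1 and Dut passed, against 0.413% higher over the whole array. Taking the brightest probe set of each gene, the 5 genes had a median log2 change of 0.72 (range 0.37 to 0.94), where the median of all tested probe sets was −0.03. The groups of all 5 stood apart. Under the scalings tried, the median of the 5 genes lay between 0.73 and 0.95 and that of all probe sets between 0.0023 and 0.20. The probe sets of a gene share their transcript and are not separate evidence. In Dut, Tk1 and Dck the bright probe sets were higher in PhIP, and the dim ones, at signals of 22.3 or less, overlapped.

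Other genes of nucleotide metabolism lay on both sides of 0. The list held 64 genes of purine and pyrimidine synthesis, the folate cycle, phosphorylation, breakdown and transport. Of these, 55 had a probe set with 1 symbol and 49 were tested, and 0 passed an adjusted p of 0.05 in limma. At an unadjusted p under 0.05, 2 were higher (4.08%) and 1 lower (2.04%). The 1 lower was Cmpk2, and that count was 0 with no filter. With the groups apart there were 16 higher (32.7%) and 14 lower (28.6%), against 19.8% and 26.0% of all tested probe sets. Each listed gene was taken at its brightest probe set, and of all tested genes taken so the shares were 21.6% and 26.9%. The median log2 change of the list was 0.05, with a range from −0.71 (Cmpk2) to 0.65 (Nt5m). These 2 genes passed the brightness filter only through the group where they were high. Under median centring and scaling to the hybridization controls, 13 and 16 were higher at that unadjusted p, where 13.5% and 20.8% of all tested probe sets were, the medians of the list being 0.19 and 0.28 while those of all probe sets moved to 0.11 and 0.20. Without control 1, 4 of 48 passed the adjusted p, where 12.7% of all probe sets did, with Cmpk1, Nt5c2 and Ppat (named after its value was seen) higher and Shmt2 lower, and the median was then −0.02.

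Deaminases and hydrolases had the highest median among the roles of that list. Of 5 tested deaminases and hydrolases, 4 were higher with no overlap and 1 lower, against 19.8% and 26.0% of all tested probe sets, with a median of 0.32, and none passed an adjusted p of 0.05 in limma. Dctpp1, which clears unwanted deoxycytidine triphosphates, read 207.2 and 226.8 in control against 269.7 and 315.1 after PhIP (log2 change 0.41 ± 0.13, limma adjusted p = 0.273). Dctd, which deaminates dCMP to supply the substrate of thymidylate synthase, read 42.2 and 39.4 in control against 48.2 and 69.4 after PhIP (0.42 ± 0.21, adjusted p = 0.446). The other 2 measured genes of this role were too dim to be tested, and both were lower in PhIP with no overlap. They were the deoxynucleotide hydrolase Samhd1 (control 22.9 and 9.5, PhIP 8.1 and 6.6) and the deaminase Cda (3.5 and 15.4, 2.5 and 1.9). Both were named after their values were seen.

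Of 9 tested nucleotide kinases, 3 were higher with no overlap and 1 lower, against 19.8% and 26.0% of all tested probe sets. The other 5 overlapped, and the median of the 9 was −0.04. Cmpk1, the cytosolic kinase of CMP and UMP, read 3274 and 2814 in control against 3860 and 3514.0 after PhIP (0.28 ± 0.09, limma adjusted p = 0.275). Cmpk2, its mitochondrial counterpart and an interferon-induced gene, read 34.7 and 19.2 in control against 12.6 and 11.5 after PhIP (−0.71 ± 0.28, adjusted p = 0.354). Uck1, a uridine and cytidine kinase, was 0.22 ± 0.11 higher (adjusted p = 0.419). The groups of these 3 genes stood apart, each in the direction given. The mitochondrial salvage kinases Tk2 and Dguok, named after their values were seen, were at 0.18 ± 0.26 and 0.10 ± 0.15, and their groups overlapped.

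Of the nucleotidases, which take phosphate from nucleotides, Nt5m in mitochondria read 14.2 and 6.1 in control against 17.0 and 25.6 after PhIP (0.65 ± 0.31, limma adjusted p = 0.419) and Nt5c2 in the cytosol read 73.5 and 46.9 against 89.3 and 80.9 (0.46 ± 0.22, adjusted p = 0.416; 0.44 ± 0.23 in a dimmer probe set). Shmt2, which feeds one-carbon units to the mitochondrial folate cycle, read 166.6 and 209.8 in control against 140.7 and 153.5 after PhIP (−0.33 ± 0.15, adjusted p = 0.419). Folate genes had a median of −0.08 over 7 genes, pyrimidine synthesis and salvage −0.08 over 5, purine synthesis and salvage 0.10 over 10, and carriers −0.23 over 5.

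**Figure D3:**
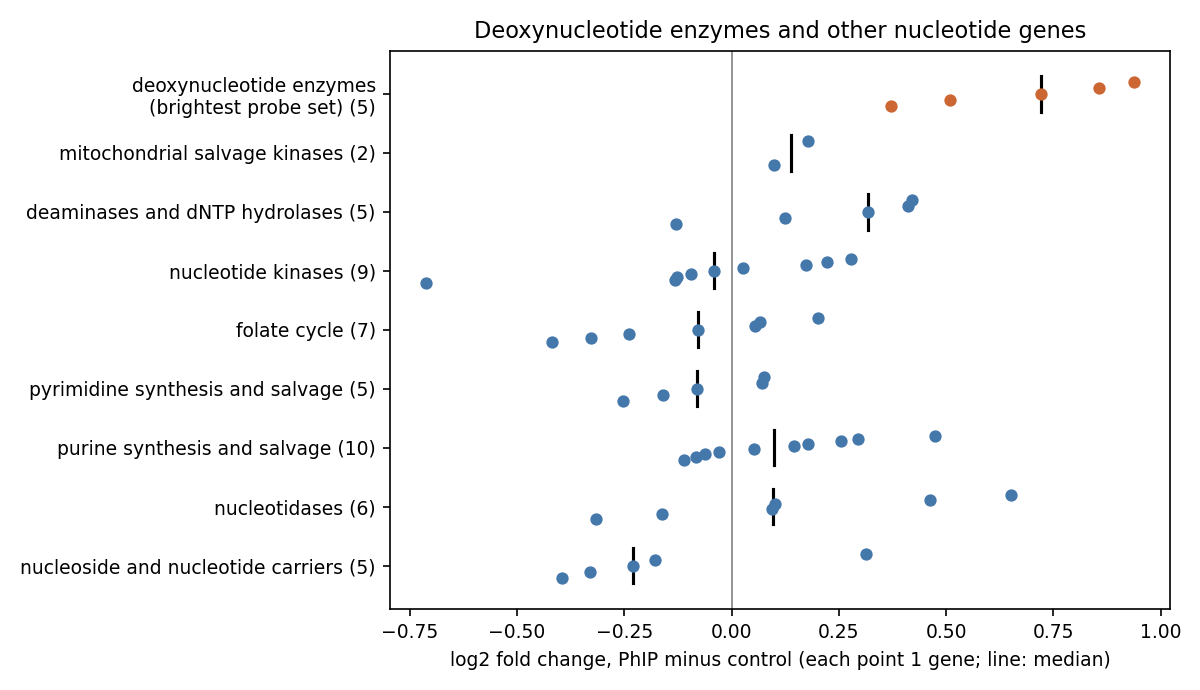
Log2 fold change (PhIP minus control) of the 5 deoxynucleotide enzymes and of 49 other nucleotide genes by role, 1 point for each gene at its brightest probe set and a line at the median; numbers in brackets are genes tested. The 5 enzymes lie between 0.37 and 0.94 and the other roles have medians from −0.23 to 0.32.

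Markers of dividing cells were higher on the same arrays. Of 10 such genes, 10 had a log2 change above 0, and in 8 the groups stood apart with PhIP higher (19.8% of all tested probe sets). Their summed signal was 1652 and 1447 in control against 2532 and 2958 after PhIP. The proliferation antigen gene Mki67 read 156.6 and 163.6 in control against 252.6 and 286.4 after PhIP. Pcna, the polymerase clamp, read 705.2 and 547.4 in control against 1172.0 and 1347.0 after PhIP. Of the helicase genes, Mcm6 was apart (158.1 and 127.5 in control, 230.3 and 234.1 after PhIP), and Mcm2 and Mcm5 overlapped. In these bulk samples, more cells in S phase and more RNA in each such cell cannot be told apart.

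Set against the mean log2 value of those 10 markers on the same array, the members divided. Dut was 0.27 log2 units higher in PhIP than in control and Rrm1 0.19, with the groups apart. Dck, at 0.05, and Tk1 taken at 1372631_at, at −0.16, overlapped. The other tested Tk1 probe set, 1389858_at, changed by 0.72 where the marker mean changed by 0.67. It was not set against the markers array by array. Tyms was lower relative to the markers, at −0.30, with the groups apart. It is a dim gene, and the constant of 10 understates its own change (0.37, against 0.53 with no constant). The comparison with the markers was not repeated without the constant. The shared probe sets of Rrm2 and Rrm2l1 were higher by 0.61 (1389408_at) and 1.08 (1393848_at). Of 7 luminal markers, 6 were themselves higher with the groups apart, against 19.8% of all tested probe sets. The mean of the 7 was higher by 0.21. Against that mean Rrm1 was 0.64 higher, Dut 0.73, Dck 0.51 and Tk1 0.30, with the groups apart. Tyms was at 0.16 with the groups overlapping. These comparisons were chosen after the values were seen and are a description.

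**Figure D4:**
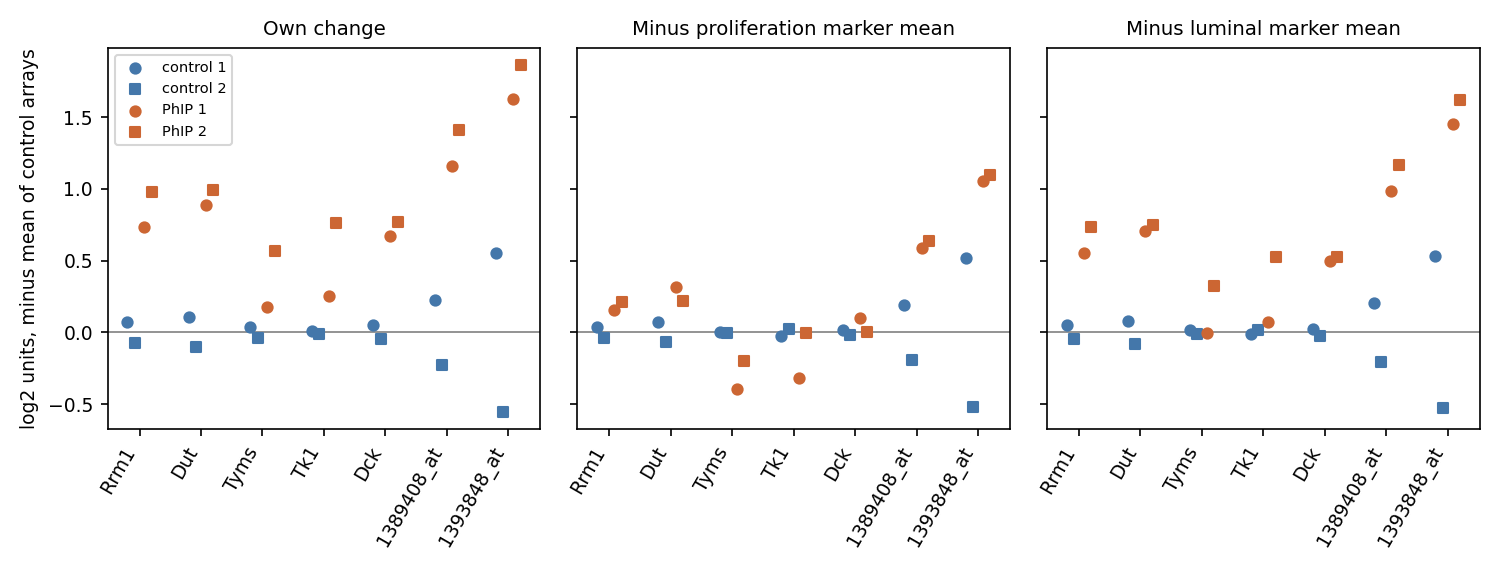
Log2 value of each gene (brightest probe set) and of the probe sets shared by Rrm2 and Rrm2l1 on each array, centred on the mean of the control arrays: as measured, minus the mean of 10 proliferation markers, and minus the mean of 7 luminal markers. Against the proliferation markers, Dck and Tk1 (1372631_at) overlap between groups. Tyms, a dim gene whose change the added constant understates, lies lower in PhIP, and Rrm1, Dut and both shared probe sets lie higher.

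Markers of the stroma were lower in signal, none passing an adjusted p of 0.05. All 7 smooth muscle markers were lower with the groups apart (summed signal control 5969.6 and 5905, PhIP 3625 and 3665), and so were 5 of 6 fibroblast markers (control 11236 and 8755, PhIP 6734 and 6778), where 26.0% of all tested probe sets were lower with no overlap. Skeletal muscle markers summed to 903.9 and 1438 in control against 495.9 and 416.4 after PhIP, with all 5 log2 changes below 0 and the groups apart in 4. Part of this rests on control 2. The control arrays read 5.2 and 305.6 for Myl1, 22.6 and 93.9 for Ckm and 20.2 and 71.4 for Tnni2. With 1 array left out the Myl1 change ran from −4.2 to 0.13. Myl1, Tnni2 and the adipocyte gene Adipoq passed the brightness filter only through the control group, where they were high. The 4 endothelial markers (183.6 and 205.4 against 126.3 and 118.8) and the 3 red blood cell markers (1811 and 2612 against 1374 and 904.3) were lower with the groups apart, and the 4 adipocyte markers summed to 285.8 and 192.3 against 79.8 and 146.3, with 2 apart. Of 4 macrophage markers, Cd14 and Lyz2 were higher and Cd68 lower with the groups apart. Of 4 basal markers, 2 were lower with the groups apart. Of the lymphocyte markers, Cd2 and Cd79b were at 3.7 or less on every array, and the 5 measured genes summed to between 45.9 and 73.3 in control and between 57.3 and 62.1 in PhIP. The 7 measured luminal markers, of 9 listed, summed to 18745 and 17481 in control against 19960 and 20344 after PhIP. No marker was at 0 on any array, the lowest being the lymphocyte gene Cd3e at 0.4. The part of these shifts in the change of the deoxynucleotide enzymes was not tested.

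Among 16 measured regulators of these genes, of 19 listed, 14 had a log2 change above 0, as did 8624 of all 18625 tested probe sets. Of the 14, Rb1, Lin9, Lin54 and Mybl2 were at 0.11 or less, overlapped and turned sign with 1 array left out. None of the 16 passed an adjusted p of 0.05 in limma. At an unadjusted p under 0.05, 3 were higher (18.8%) and 1 lower (6.25%), against 5.36% and 7.61% of all tested probe sets. The p53 target Cdkn1a, an inhibitor of S-phase entry, read 138.6 and 117.2 in control against 347.2 and 466.6 after PhIP (1.59 ± 0.17, adjusted p = 0.0517). E2f8, which encodes a repressive E2F that is itself made in S phase, read 22.9 and 23.6 in control against 48.3 and 53.7 after PhIP (0.87 ± 0.20, adjusted p = 0.151). Foxm1, the activator of late cell cycle genes, read 27.9 and 26.7 against 39.4 and 49.1 (0.53 ± 0.21, adjusted p = 0.345). E2f4, an E2F that represses in resting cells, read 303.7 and 299.6 in control against 231.1 and 238.4 after PhIP (−0.35 ± 0.11, adjusted p = 0.283). E2f1, the activator, was at 0.31 ± 0.15 (adjusted p = 0.438), and Ccnf, whose product marks the Rrm2 protein for destruction, at 0.18 ± 0.19 (adjusted p = 0.709).

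The genes whose pattern over the 4 arrays lay nearest to each member were found by Euclidean distance between centred log2 values among 10507 genes, a description over 4 arrays. Nearest to Rrm1 were Asf1b, a histone chaperone of replicating cells (distance 0.063), and Zfp950l1 (0.088). Nearest to Dut were Gpsm3 (0.071) and the mitotic checkpoint kinase gene Bub1 (0.071), and to Dck the potassium channel gene Kcns1 (0.038) and the condensin gene Ncapd2 (0.060). Tk1, taken at 1372631_at, lay nearest to Ahsg (0.078) and the nuclear pore gene Ahctf1 (0.096), and Tyms to the acetyl-CoA synthetase gene Acss1 (0.044) and Fry (0.053). Asf1b read 40.6 and 35.8 in control against 65.9 and 82.0 after PhIP, and Bub1 39.0 and 31.3 against 76.0 and 84.2. Gpsm3 (control 9.8 and 6.8, PhIP 22.5 and 27.3) passed the brightness filter only through the PhIP group, where it was high. So did Zfp950l1 (control 14.9 and 11.6, PhIP 30.1 and 38.7).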

How the data were processed

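Total RNA from 4 pools of 2 rats was labelled and hybridised to Affymetrix rat arrays, per the labels' protocols. The deposited values are MAS5 intensities on a linear scale, scaled by the authors; MAS5 is named without a version in the submitters' processing notes, and the sources used here give neither scaling target nor detection calls. The trimmed means (2% at each end) differed by 0.0013% at most.

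The 57 control probe sets were left out. The fit used log2(signal + 10), the constant being 10% of the trimmed mean, which understates changes of dim genes, and probe sets above the 40th percentile (18625 tested, 12417 not). limma 3.58.1 in R 4.3.3 (lmFit, eBayes with trend, two-sided) gave moderated tests on 2 residual and 5.67 prior degrees of freedom, with Benjamini-Hochberg adjustment over all tested probe sets. The steps were tested on simulated data. Array number limits the precision. As each array is a pool, p-values measure the spread between pools. The replicate numbers do not pair the arrays by any label.

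Symbols came from the platform annotation (20826 probe sets with 1, 436 with several, 9780 with none). Named were all member probe sets, the 8 genes of the nucleotide list with the lowest p, the 2 nearest patterns of each member, and listed regulators and markers as used; a gene outside a list is said to be chosen after its values were seen. The comparison of Rrm2 with Rrm2b could not be made. Members and lists were chosen with earlier results of these data known. Plots: Python 3.11.15, matplotlib 3.10.9.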

Additional observations from a re-analysis of the deposited data

How the results depend on the processing

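Of 16 alternatives to the settings used, 16 kept the direction of Rrm1, Tyms and both tested Tk1 probe sets. They also kept that of the bright Dut and Dck probe sets and both probe sets shared by Rrm2 and Rrm2l1. Most of them could not have turned it. Changing the filter, the eBayes setting or the block leaves the log2 change as it is. Where both PhIP arrays lie above both control arrays, as here, neither another constant nor leaving an array out can turn the sign. Only the scalings and normalizations could have done so, and the smallest of these changes under them was 0.51 (Tyms, quantile normalization). The 7 members tested gave 5 higher at an unadjusted p under 0.05, and between 3 and 6 under the alternatives: 6 after scaling to the hybridization controls, 4 with eBayes without trend and 3 without PhIP 2 (leave-one-out range 3 to 5). At an unadjusted p of 0.01, 4 were higher.

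The number of probe sets past an adjusted p of 0.05 over the whole array, 5 as reported, moved far more. It was 0 with eBayes without trend, after median centring or quantile normalization and with no filter, 3 with cyclic loess, 22 with a constant of 20% of the trimmed mean, 44 with the filter at the 60th percentile, 52 with robust eBayes, 165 after scaling to the hybridization controls and 143 at an adjusted p of 0.10. Leaving out 1 array gave 0 to 2361, with 467 without control 2. The cause was not tested. With the replicate number as a block it was 35. The deviations of arrays of the same number correlated at −0.056 over the tested probe sets. What the numbers stand for is not known. Among members, that block moved 1 call, Dut. The bright Dut probe set passed under 7 of the 16 alternatives. The dim probe sets 1395361_at, 1387626_at, 1384845_at and 1397872_at changed sign under at least 1 alternative and had signals of 22.3 or less, near the limit for testing (mean signal plus constant 24.3).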
